A study of Mus musculus with 7 samples.

Results

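A total of 2176 sites of estrogen receptor beta (ERβ) signal in mouse ovary, 33.9% of the 6427 sites found in all, were called in exactly 1 of 3 ChIP-seq replicates. Of these, 257 were called in ChIP replicate 1 only, 937 in ChIP replicate 2 only and 982 in ChIP replicate 3 only. A site was a local maximum of the mean signal over 200 bp that reached 2, exceeded 4 times the mean of the 2 input libraries (or their genome mean where that was higher) and exceeded 4 times the same library's mean over the surrounding 10 kb, and summits within 200 bp of each other were merged. The members were thus selected on measured signal in all 5 libraries, so their signal in every library is given as a description, with no test. Members just inside the limits had signals of 2.0005 and 2.0023, folds over input of 4.001 (both) and ratios to their own 10-kb mean of 4.001 and 4.002, and maxima just outside them had signals of 1.9996 and 1.9997, folds of 3.9996 and 3.9998, and ratios of 3.999 and 3.9997.

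In chromatin immunoprecipitation followed by sequencing (ChIP-seq), cross-linked and sheared chromatin is pulled down with an antibody and sequenced, and input is the same kind of chromatin sequenced without that step. The 3 ERβ ChIP replicates and the 2 inputs came from ovaries of C57BL/6J mice that express ERβ from their own gene, the ChIP was made with the monoclonal antibody PPZ0506, and each ChIP replicate pooled the ovaries of several mice of mixed ages, so that a replicate was a pool and not an animal. Whole ovaries hold many cell types, and a weaker signal from fewer bound cells and one from less binding per cell cannot be told apart. ERβ ChIP samples from ovaries with deleted ERβ were not analysed here.

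ERβ, encoded by Esr2, is a ligand-activated nuclear receptor that in the ovary is found mainly in granulosa cells, where it is known for its part in follicle growth and ovulation. It binds DNA as a dimer at the estrogen response element (ERE), a pair of inverted half-sites separated by a short spacer, and it can also sit at single half-sites or at elements of other factors. Receptors of the NR5A family, GATA, FOXO and AP-1 factors are known partners or neighbours of estrogen receptors on chromatin.

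The following sequences show what one-replicate sites look like at the DNA level. They are given 5′ to 3′ on the plus strand of GRCm38 (mm10), from the RefSeq copy of the assembly, and the capitals mark the best match to an ERE in the 200-bp window, with 8 bases on either side. An ERE was scored as the half-site GGTCA, 3 free bases and the half-site TGACC, by the number of mismatches in the 10 fixed bases. The first group holds EREs with at most 1 mismatch, shown because they are the closest to the binding sequence of the receptor.
Bhlhe40 site (chr6:108687031-108687230, called in ChIP replicate 3, 0 mismatches): tgaagccaGGTCAAGTTGACCttgcctct
Nr1d1 site (chr11:98773051-98773250, replicate 3, 1 mismatch): tcaaggttGGTCAGGGTGAACcctgcctg
Fkbp5 promoter site (chr17:28486361-28486560, replicate 3, 1 mismatch): agaggtcgGGCCATGCTGACCccggaaaa
Htr5a site (chr5:27880471-27880670, replicate 1, 1 mismatch): tgttctggGGTCACTGTGAACtgtaccct
Foxn2 site (chr17:88439601-88439800, replicate 2, 1 mismatch): cttatgaaGGCCAGGGTGACCtctaaatc

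The second group holds sites whose best match was poorer, shown for contrast. The Reln site had the highest fold of all members, and the site 97.1 kb upstream of Vmn2r87 lay in a repeat of a short unit.
Reln site (chr5:22099071-22099270, replicate 2, 4 mismatches): tttctacaGGTCCCTGGGTCAtctgacac
Vmn2r87 site (chr10:130594431-130594630, replicate 3, 3 mismatches): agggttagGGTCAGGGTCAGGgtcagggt
Ncoa1 site (chr12:4392201-4392400, replicate 2, 2 mismatches): aagttcagGGTCATCCTCAGCtacatagc

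All 5 tracks were scaled by the authors to near-equal totals, and their genome means lay between 0.362 and 0.3697. The 3 ChIP replicates had 6300, 8600 and 11475 maxima of 2 or more, of which 58%, 58.5% and 42.8% were called. One-replicate sites made up 7.03% of the 3656 sites called in replicate 1, 18.6% of the 5031 in replicate 2 and 20.004% of the 4909 in replicate 3. The other sites were called in 2 replicates (1333 sites, of which 852 were shared by replicates 2 and 3) or in all 3 (2918 sites). The same criteria applied to 1 input against the other called 7 sites in input replicate 1 and 2 in input replicate 2. Equal signal in a pair of libraries was found in at most 0.265% of site windows, so no library was a copy of another.

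Most one-replicate sites were raised above input in the replicates that did not call them. At sites called in replicate 1 only, the median fold over input was 4.78 in that replicate, 3.08 in replicate 2 and 2.95 in replicate 3. Sites called in replicate 2 only had median folds of 4.87 there, 2.64 in replicate 1 and 2.85 in replicate 3, and those called in replicate 3 only had 4.80 there, 2.29 in replicate 1 and 2.90 in replicate 2. The median of the mean fold in both other replicates was 2.70 over all members and 2.94, 2.71 and 2.62 by calling replicate (SD 0.164, n = 3 calling replicates). These medians lie between the genome average and the threshold of 4, and the threshold bounds them from above for most members, since a higher fold would usually have been a call.

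**Figure D1:**
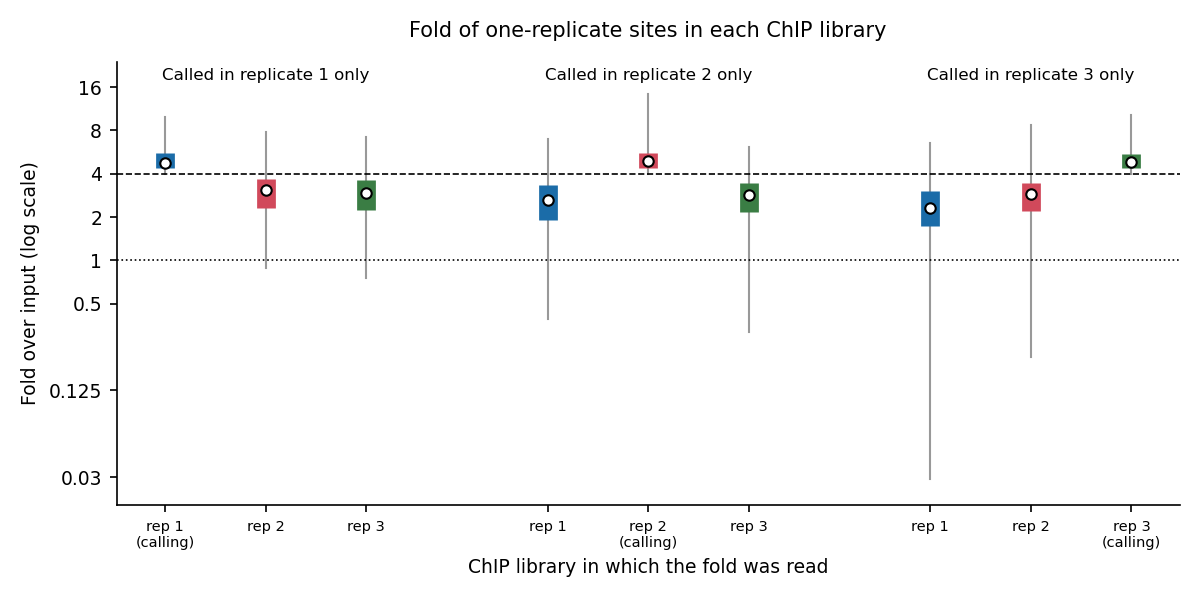
Fold over input (log scale) of one-replicate sites, read in each of the 3 ChIP libraries and grouped by the replicate that called the site; circles are medians, thick bars the quartiles and thin lines the full range. The dashed line is the threshold of 4 and the dotted line a fold of 1. Medians in the replicates that did not call the site lie between 2.29 and 3.08, and single sites reach down to 0.0303.

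At least 2-fold signal was found in both other replicates at 1323 members (60.8%), in 1 of them at 630 (29.0%) and in neither at 223 (10.2%). By calling replicate, the share with at least 2-fold in both others was 71.2% for replicate 1, 61.3% for replicate 2 and 57.6% for replicate 3. For all 12796535 windows of 200 bp along the genome, the shares passing 2-fold in the same pairs of libraries were 0.184%, 0.143% and 0.171%. The rule used these libraries, and every member is a maximum while most windows are not, so these shares are set side by side and nothing is read from their ratio.

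At the ends of the range, 53 members (2.44%) had at least 4-fold signal in both other replicates as well, and 25 (1.15%) were under 1-fold in both. Under 1-fold in at least 1 other replicate were 157 (7.22%). Replicate 1 had the fewest members under 1-fold in both others, 0 of 257, against 9 of 937 for replicate 2 and 16 of 982 for replicate 3.

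Missed criteria were read in the highest 200-bp window within 200 bp of the site. Input and local mean were those of the site's own window. The criterion most often missed in the replicates that did not call a site was the fold over input. It was missed at 76.7% to 94.9% of members depending on the pair of libraries. The height of 2 was missed at 55.0% to 75.3% and the ratio to the local mean at 53.2% to 71.2%. All 3 criteria were missed together at 41.6% to 59.0%, and the fold alone at 14.4% to 32.7%. At 0.916% to 5.84% of members another replicate passed all 3 criteria in that highest window but had no called summit within 200 bp.

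Averaged over the sites of each calling replicate, signal in the other replicates was a peak centred on the site and not a raised plateau. The shape at single sites was not read. For sites called in replicate 1 only, the mean signal in the central 50 bp was 6.89 times that at a distance of 1 to 1.5 kb in replicate 1, 3.92 times in replicate 2 and 3.64 times in replicate 3. Sites called in replicate 2 only gave 6.81 times in that replicate, 3.81 in replicate 1 and 3.77 in replicate 3, and those called in replicate 3 only gave 7.78 times, 3.98 in replicate 1 and 4.51 in replicate 2. In the inputs the same ratio was 1.04 to 1.34. Both inputs thus rose little at members, most at those called in replicate 3 only (1.34 and 1.29 times).

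**Figure D2:**
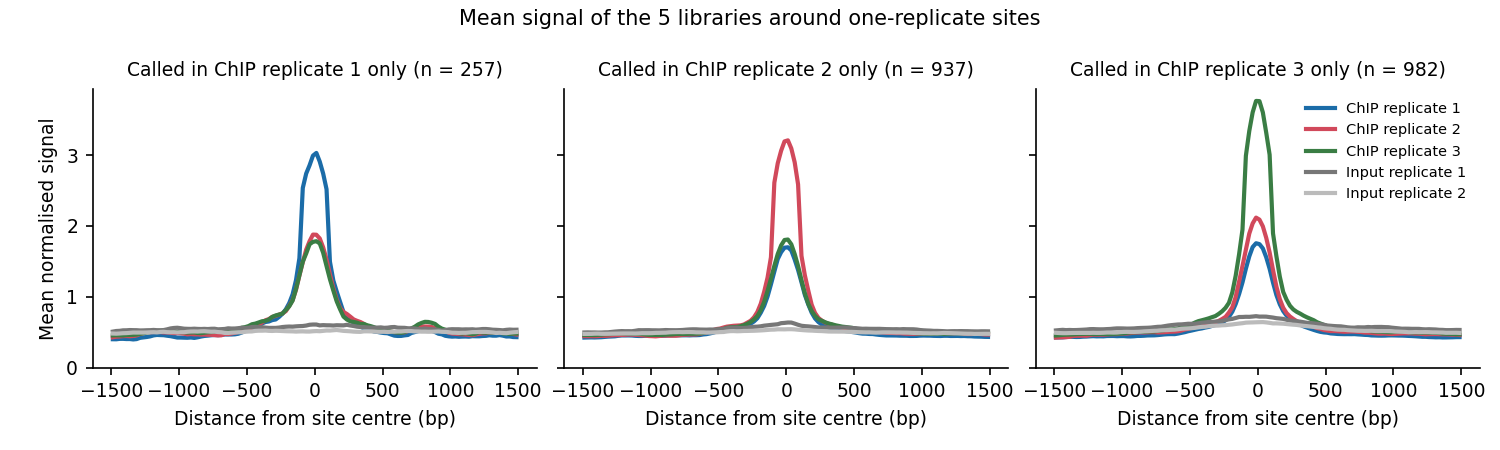
Mean normalised signal of the 5 libraries against the distance from the centre of the site, for sites called in ChIP replicate 1 only (n = 257), replicate 2 only (n = 937) and replicate 3 only (n = 982). In each panel the calling replicate is highest, the other ChIP replicates form a lower peak at the same place (central signal 1.70 to 2.10), and both inputs are low (central signal 0.517 to 0.725).

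More than 1 in 2 one-replicate sites held an ERE. A match with at most 2 mismatches lay in the 200-bp window of 1245 members (57.2%), with 58.4%, 57.5% and 56.6% by calling replicate (SD 0.873, n = 3). Windows of the same size at 1 kb on either side of the members held one in 7.67% of cases, all genome windows in 6.68%, and genome windows weighted to the GC content of the members in 8.42%. The 3 calling replicates thus lay close to each other, while the flanks of each lay between 5.64% and 8.004%. Sequence played no part in calling the sites, but regions of one genome are not replicates, and the shares are given without a test.

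Stricter matches were rarer at members and in their flanks. At most 1 mismatch was found at 22.5% of members against 0.643% of their flanks, and a perfect match at 80 members (3.68%) against 0.0230% of flanks. Sites called in more replicates held EREs more often, at 64.5% for 2 replicates and 71.4% for 3, and with at most 1 mismatch at 29.6% and 36.1%. Perfect matches made up 5.55% and 7.20% of these sites. The one-replicate sites were therefore the lowest of the 3 classes on each of the 3 ERE scores.

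At a like fold in the calling library this order was kept in part. Among sites of 4- to 5-fold in replicate 1, an ERE was found at 60.5% of the one-replicate sites, 57.7% of those in 2 replicates and 62.7% of those in 3. In replicate 2 the shares were 56.8%, 64.6% and 62.6%, and in replicate 3 they were 53.4%, 67.6% and 55.1%. The one-replicate sites were lowest in replicates 2 and 3 and in between in replicate 1. At 5- to 6-fold they were lowest in all 3 libraries (55.9%, 54.2% and 57.8%, against 60.2% to 67.4% for 2 replicates and 60.6% to 66.1% for 3). At 6- to 8-fold they had 56.8%, 68.8% and 65.8%, lowest in replicates 1 and 3, with 60.2% to 70.1% for 2 replicates and 68.8% to 74.3% for 3. Over 8-fold, where 75.5% to 76.7% of the sites in 3 replicates held an ERE, only 5, 24 and 12 one-replicate sites were left.

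The matches were concentrated at the centre of the site. For members with an ERE, the median distance from the centre of the match to that of the site was 24 bp, and 52.7% lay within 25 bp. For sites in 2 replicates the median was 18 bp with 64.5% within 25 bp, and for sites in 3 replicates it was 15 bp with 72.4%. The centre was the highest summit for one-replicate sites, but the mean of the merged summits for sites in 2 or 3 replicates. The part of this in the differences between the classes was not tested. By calling replicate the members' medians were 26, 24 and 23 bp, close to each other beside the gap to the sites of 3 replicates.

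**Figure D3:**
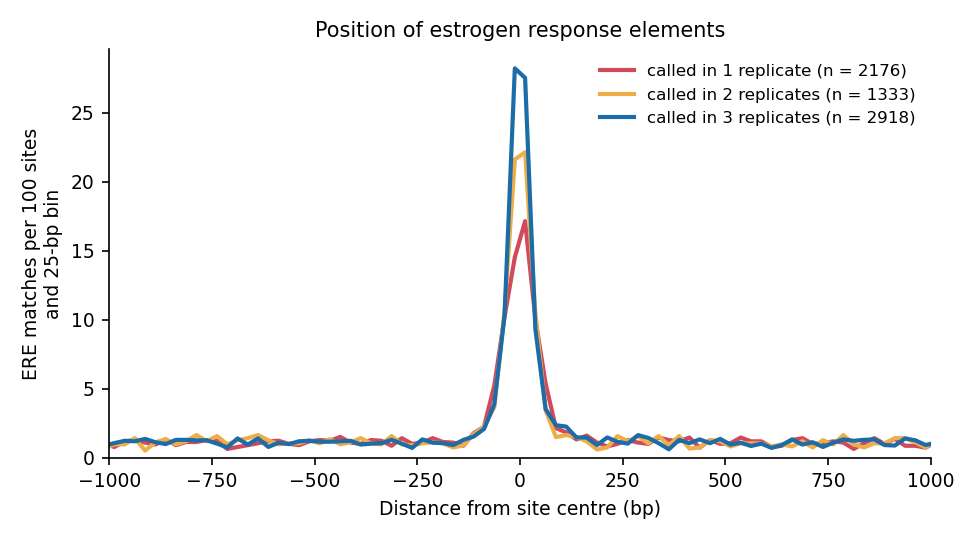
Number of ERE matches (at most 2 mismatches) per 100 sites in bins of 25 bp, against the distance from the site centre, for sites called in 1, 2 and 3 replicates. All 3 lines peak at the centre, the peak of the one-replicate sites is the lowest and widest (52.7% of their EREs within 25 bp, against 72.4% for 3 replicates), and the lines meet at a common low level outside it. The centre is the highest summit for one-replicate sites and the mean of the merged summits for the others.

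Read by the signal in the other replicates, the ERE share was 60.2% of the 1323 members with at least 2-fold in both others, 56.3% of the 630 with it in 1, and 42.2% of the 223 with it in neither. The flanks of these 3 groups held an ERE in 7.41%, 8.33% and 7.40%. With at most 1 mismatch the shares were 24.8%, 20.2% and 15.7%. The lowest group differed among calling replicates: 40.6% of 96 sites called in replicate 2 only and 39.8% of 113 called in replicate 3 only held an ERE, but 10 of the 14 sites called in replicate 1 only did (71.4%). The members of these groups also differed in the calling replicate itself, with median folds of 5.03, 4.71 and 4.53, and the part of this in the ERE shares was not tested.

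**Figure D4:**
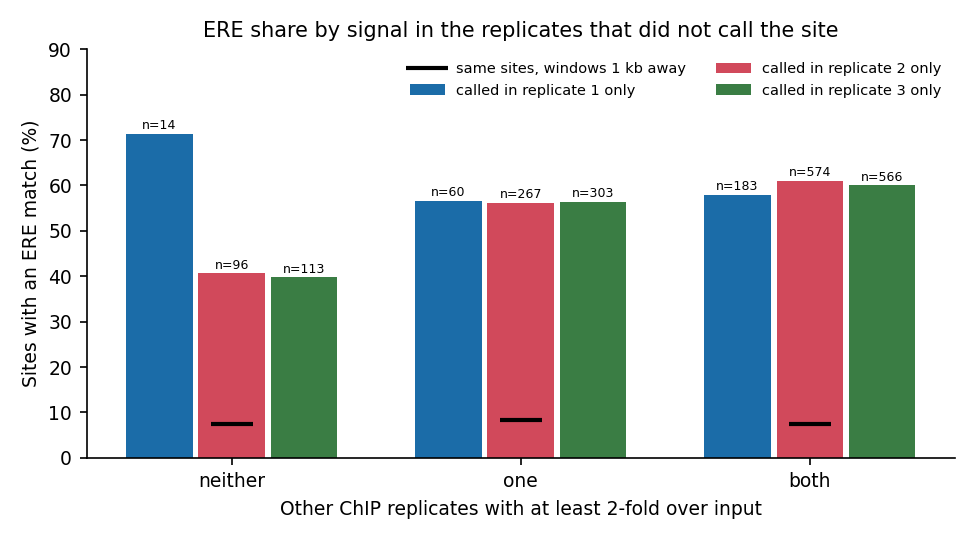
Share of one-replicate sites with an ERE match (%), by the number of the other ChIP replicates with at least 2-fold signal and by the replicate that called the site, with the number of sites over each bar; black marks give the share in windows 1 kb away, over the sites of all 3 calling replicates together. Every bar stands above its mark (7.40% to 8.33%), and sites called in replicate 2 or 3 with no 2-fold signal elsewhere are the lowest (40.6% and 39.8%).

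Counted together, 796 members (36.6%) had both an ERE and at least 2-fold signal in both other replicates, and 328 (15.1%) had both with at most 1 mismatch. At the other end, 129 members (5.93%) had neither an ERE nor 2-fold signal in either other replicate. In 5 of the 6 pairs of libraries, median folds in the other replicates were higher with an ERE than without, by 0.00844 to 0.378. In replicate 2, the sites called in replicate 1 only went the other way (medians of 3.08 with and 3.14 without). In the calling library itself the difference, with minus without, was -0.137, 0.0936 and 0.127 for replicates 1, 2 and 3. The part of this in the other replicates was not tested.

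Single half-sites and elements of other factors were found at part of the members. A half-site, GGTCA on either strand, lay in 78.5% of member windows against 30.3% of their flanks, and every perfect ERE holds one. Of the members without an ERE, 603 (27.7% of all members) held a half-site. An element of at least 1 kind among ERE, NR5A, GATA, AP-1 and FOXO was found at 1577 members (72.5%). These combined counts, 603 and 1577, were not read in flanks or genome windows, so no background stands beside them.

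The NR5A element, scored as TCAAGGTCA or CCAAGGTCA on either strand and bound by SF-1 and LRH-1, was found at 160 members (7.35%) against 1.01% of flanks and 0.820% of GC-weighted genome windows. It contains a half-site, and outside of an ERE it was found at 4.78% of members. By calling replicate it was at 7.39%, 8.11% and 6.62% (SD 0.746, n = 3), and sites in 2 and 3 replicates had it at 7.95% and 6.92%. The share at one-replicate sites therefore fell between those of the other classes.

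GATA elements were scored as AGATAA or TGATAA on either strand, preceded by any base and before it a base other than A. They were found at 20.9% of members, 12.9% of flanks, 9.70% of GC-weighted windows and 16.5% of all genome windows. The last of these backgrounds was close to the 16.9% at sites called in replicate 3 only. The 3 calling replicates differed, at 26.5%, 23.5% and 16.9% (SD 4.89, n = 3), and 19.3% and 23.0% of the sites in 2 and 3 replicates held one. AP-1 elements (TGACTCA or its reverse complement) were at 6.62% of members against 3.08% of flanks, and FOXO elements (TGTTTAC) at 4.41% against 2.90%. In sites of 3 replicates the latter shares were 6.79% and 5.31%.

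Members lay mainly in introns and between genes, for each of the 3 calling replicates. Of all members, 1007 (46.3%) were in introns and 658 (30.2%) between genes, with 105 at transcript ends, 40 in coding exons, 38 in other exons, 21 in 3′ UTRs and 16 in 5′ UTRs. The remaining 291 (13.4%) were in promoters, from 1 kb upstream to 100 bp downstream of a transcript start. Genome windows of the same GC content were in introns in 39.2%, between genes in 40.1% and in promoters in 9.77% of cases. Sites in 2 and 3 replicates had promoter shares of 10.2% and 9.60%.

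The promoter share differed by calling replicate, at 8.95% (23 sites), 6.51% (61) and 21.1% (207), for replicates 1, 2 and 3 (SD 7.80, n = 3). Genome windows weighted to the GC of each group gave 5.56%, 5.23% and 15.2%. The median distance of a member to a transcript start was 10748 bp, 9733 bp and 5086.5 bp, and the median GC content 48.5%, 48.5% and 53%. Replicate 3 also stood apart from the other ChIP libraries at promoters at large: its mean signal over all 54086 protein-coding transcript starts was 2.47 times its genome mean, against 1.39 and 1.66 times in replicates 1 and 2 and 2.16 and 2.02 times in the inputs. The part of this in the sites called in replicate 3 only was not tested.

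**Figure D5:**
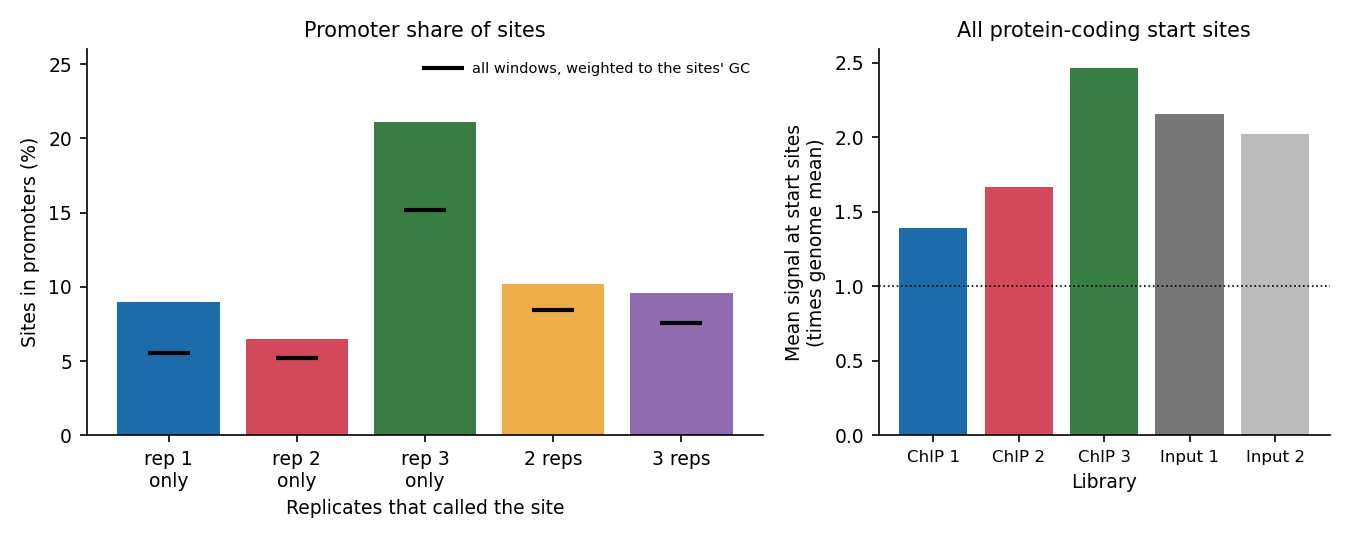
Left, share of sites in promoters (%) by the replicates that called them, with black marks for genome windows weighted to the GC content of the same sites; right, mean signal over all protein-coding transcript starts in each library, as a multiple of its genome mean (dotted line at 1). Sites called in replicate 3 only have the highest promoter share (21.1%), and replicate 3 has the highest signal at starts among the ChIP libraries (2.47, against 1.39 and 1.66).

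The 207 promoter sites called in replicate 3 only differed from the other members in more than position. Their median GC content was 67.5%, their median input signals were 0.930 and 0.850, and their median folds were 2.01, 2.69 and 4.77 in replicates 1, 2 and 3. An ERE was found at 92 of them (44.4%), against 59.9% of the 775 sites called in replicate 3 only that lay elsewhere. A lower share in promoters was also found for replicate 1 only (43.5% of 23 sites, against 59.8% elsewhere). It was not found for replicate 2 only (57.4% of 61, against 57.5%). For replicate 3 only, GATA elements were at 8.21% in promoters against 19.2% elsewhere, and NR5A elements at 1.45% against 8%. Without any promoter site, the ERE share of the one-replicate sites was 58.8% of 1885. Among the 113 sites called in replicate 3 only with under 2-fold signal in both others, 36.3% were in promoters, against 17.5% of the 566 with at least 2-fold in both.

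Repeats were less common at members than in the genome. The centre of 9.70% of members lay in a repeat as marked in the reference (9.73%, 11.0% and 8.45% by calling replicate, SD 1.27, n = 3), against 34.3% of genome windows. Of the sites in 2 and 3 replicates, 11.0% and 8.77% did. Members with no 2-fold signal elsewhere had the highest share, 14.3%. This held for sites called in replicate 2 only (17.7%) and in replicate 3 only (12.4%). Among sites called in replicate 1 only, the 14 such members had 7.14%, against 10.9% of those with 2-fold signal in both others.

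The median distance from a one-replicate site to the nearest site in 2 or 3 replicates was 96.0 kb. Within 50 kb of such a site lay 771 members (35.4%), within 5 kb 168 and within 500 bp 31. The same distances were not computed for genome windows, so they do not tell whether members lay nearer to shared sites than other positions. The nearest protein-coding genes of the members numbered 1836. Of these, 751 (40.9%) were also the nearest gene of a site in 2 or 3 replicates, and these 751 were 25.7% of the 2923 genes of such sites. The other 1085 genes had one-replicate sites only, and 1203 of the 2176 members belonged to them. Of all 21681 protein-coding genes, 10.3% had a site in 2 or 3 replicates, counting only sites within 50 kb. The 40.9% had no limit of distance, so the 2 shares are not the same measure.

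Of the 5 members with the highest fold in the weaker of the other replicates, 4 had a shared site within 5 kb. One of them, called in replicate 1, lay with another member of that replicate in an intergenic stretch downstream of Htr5a, a serotonin receptor gene. The member 41.9 kb away (chr5:27883981-27884180) had signals of 3.84, 3.05 and 2.17 and an input signal of 0.390 in both inputs, and its best ERE had 4 mismatches. The member 38.4 kb away, which is not among these 5 but holds the ERE shown above, had 4.68, 3.97 and 2.52 with inputs of 0.440 and 0.573. Folds in replicates 2 and 3 were 7.83 and 5.56 at the first and 7.84 and 4.97 at the second. At both, the height and the fold were passed in all 3 libraries, and the ratio to the local mean only in replicate 1 (4.29 and 5.11, against 2.69 to 3.77 elsewhere), with shared sites 1.15 and 2.36 kb away.

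A further 3 of these members were likewise called in replicate 1. In intron 22 of 23 of Clec16a (chr16:10712751-10712950), signals were 3.32, 2.67 and 2.76 with inputs of 0.545 and 0.470, 0.8 kb from a shared site. At 11.4 kb upstream of Nudt9 (chr5:104034761-104034960) they were 3.47, 2.20 and 2.25 with inputs of 0.557 and 0.240, 4.45 kb from a shared site. In the intron of Zadh2 they were 3.32, 2.54 and 3.31 with inputs of 0.497 and 0.420, and the nearest shared site was 12.4 kb away. The 3 sites had folds of 5.26 to 8.72 in every ChIP library, and at each the ratio to the local mean was under 4 in replicates 2 and 3.

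Sites with the highest fold in their own replicate were less even. The Reln site, in intron 10 of 64 of the gene of the secreted protein reelin, had a signal of 5.29 in replicate 2 against 1.49 and 1.83 in replicates 1 and 3, with inputs of 0.440 and 0.240, and its folds were 4.05, 14.4 and 4.96. The member 140 kb upstream of Gm765 (chr6:98482261-98482460) had 4.31 in replicate 2 against 0.858 and 1.47, with inputs of 0.330 and 0.389. Its folds in replicates 1 and 3 were 2.33 and 3.995 (just under the threshold), and its ERE had 2 mismatches. Replicate 2 was thus far above the other ChIP libraries at these sites, but the others were still over both inputs.

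At the member 83.4 kb downstream of Mat2b (chr11:40609291-40609490), replicate 1 had 3.58 against 1.48 and 1.69 in replicates 2 and 3, with inputs of 0.437 and 0.295 and an ERE of 2 mismatches. The repeat near Vmn2r87 had signals of 1.62, 1.69 and 3.55 with inputs of 0.330 and 0.440. In both, all ChIP libraries were at least 4-fold over input (4.01 to 9.73), while the height of 2 was reached in the calling replicate only. At the Mat2b member the ratio to the local mean was also under 4 in replicates 2 and 3 (3.18 and 3.99). At the Vmn2r87 repeat that ratio was 6.98 and 7.06 in replicates 1 and 2. The Foxn2 site, 1.01 kb upstream of the gene of a forkhead factor, had 1.87, 3.25 and 2.03 with inputs of 0.454 and 0.340, and folds of 4.70, 8.19 and 5.12.

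Around genes with known roles in the ovary or in estrogen signalling, 83 genes of a fixed list were annotated, and 23 of them (27.7%) had 32 one-replicate sites between them, as the nearest protein-coding gene within 50 kb. For all 21681 protein-coding genes the share was 6.17%. Sites in 2 or 3 replicates were near 33 of the listed genes (39.8%), against 10.3% of all protein-coding genes. One-replicate sites only were found at 11 of the 83 listed genes and at 923 of all 21681. The counts for the single lists below have the same 6.17% and 10.3% as their shares over all genes. The list was chosen with results of these data known, and its genes may span larger regions than others, so the shares are a description.

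Among 17 genes of steroid synthesis and cholesterol supply, 5 had a one-replicate site, each called in replicate 2 only. At Star, which brings cholesterol into mitochondria, a site 4.21 kb upstream (chr8:25802241-25802440, at the end of the neighbouring Lsm1) had signals of 1.65, 2.24 and 1.77 with inputs of 0.677 and 0.380, and folds of 3.13, 4.25 and 3.35. At Hsd3b1, of the step to progesterone, a site 13.4 kb upstream had folds of 2.05, 4.01 and 2.98. At Cyp19a1, which encodes aromatase, an intronic site had folds of 1.15, 4.17 and 2.70. At Fdx1, an electron carrier of mitochondrial P450 enzymes, a site 21.3 kb downstream was at 1.57, 4.52 and 1.595, and in Srd5a1, a steroid reductase gene, an intron 1 site was at 1.77, 4.07 and 2.75. Star, Hsd3b1 and Srd5a1 had no shared site, and EREs of 2 mismatches were found at Hsd3b1 and Srd5a1, with none at Star, Cyp19a1 or Fdx1. In this list the Star site alone was over 3-fold in all 3 ChIP libraries.

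Of 13 receptor genes, 2 had such sites, all called in replicate 3. Lhcgr, the receptor of luteinizing hormone, had one in intron 7 of 10 (folds of 3.36, 4.70 and 5.93) and one 11.7 kb upstream (3.83, 3.11 and 5.33). Prlr, the prolactin receptor gene, had them 14.7 and 4.50 kb upstream of its nearest coding start, at 2.14, 1.65 and 4.27 and at 3.21, 3.40 and 6.86, and the second held an NR5A element. Both Lhcgr sites and the nearer Prlr site were over 3-fold in every ChIP library.

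Among coregulators, the proteins that nuclear receptors recruit, the corepressor gene Ncor1 had an intronic site with folds of 1.75, 4.08 and 3.52, and the coactivator gene Ncoa2 had one at 1.82, 2.62 and 4.52. The coactivator gene Ncoa1 had the least even site of the listed genes, with signals of 0.210, 2.24 and 0.517 and inputs of 0.697 and 0.380, so that replicates 1 and 3 were under 1-fold (0.390 and 0.960). All 3 sites had an ERE of 2 mismatches.

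Of 11 annotated estrogen targets, Fkbp5, the gene of a cochaperone of steroid receptors, had one-replicate sites. Its promoter site, 0.312 kb from a start and with the ERE shown above, had signals of 2.68, 4.05 and 4.95 and inputs of 1.18 and 1.26, against medians of 0.615 and 0.529 over all members, and folds of 2.20, 3.32 and 4.05. Its second site, in intron 2 (chr17:28502421-28502620), was at 2.16, 4.31 and 1.62. Signal thus passed the height of 2 in all 3 libraries at the promoter, and the fold in replicate 3 only.

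Factors of ovarian cell fate had sites at 5 of 11 genes. Runx1, a transcription factor of granulosa cells, had one in intron 4 with folds of 3.76, 7.72 and 3.90, the highest in a calling replicate among the listed genes. Foxo3, which holds primordial follicles dormant, had one in intron 2 (2.76, 4.66 and 3.56) and one 17.2 kb upstream with an ERE of 2 mismatches (3.72, 2.04 and 4.37). Wt1 had a promoter site at 3.11, 4.32 and 3.72, Gata6 a site 43.9 kb downstream at 1.54, 4.44 and 2.64, and Cebpb sites 1.07 kb upstream (2.01, 3.24 and 4.41) and 28.9 kb downstream, the latter with an ERE of 2 mismatches and 4.81, 3.80 and 3.87.

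Secreted factors had sites at 4 of 18 annotated genes. Inhba and Inhbb encode the beta subunits of inhibins and activins. The Inhba site, 17.9 kb upstream with an ERE of 2 mismatches, was at 2.43, 3.62 and 5.001, and the Inhbb sites, 28.9 and 24.2 kb downstream and without an ERE, were at 1.98, 4.45 and 2.58 and at 3.32, 2.58 and 5.29. Igf1 had a site 36.2 kb upstream at 2.26, 3.55 and 4.61 with both an ERE of 2 mismatches and an NR5A element, and Bmp2 one 39.9 kb downstream at 3.04, 2.74 and 6.64.

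Both clock genes with a one-replicate site, of 8 listed, had a close ERE match. No gene of that list had a shared site under the criteria used here, as the nearest coding gene within 50 kb. With 8 genes and a share of 10.3% over all protein-coding genes, this absence is not read as a result about clock genes. The paper reports ERβ binding at the promoter of Cry2, a gene of this list, from its own peak calls and ChIP-qPCR. Nr1d1, a repressor of the clock, had signals of 1.57, 2.21 and 3.85 with inputs of 0.878 and 0.890 in intron 1 of 7, and folds of 1.77, 2.49 and 4.35. The Bhlhe40 site, 26.3 kb downstream of the gene of another repressor and with the perfect ERE shown above, had 1.16, 0.600 and 2.43 with inputs of 0.668 and 0.360. Its folds were 2.25, 1.17 and 4.72, so a perfect element stood beside little signal in replicate 2.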

How the data were processed

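The authors aligned reads with STAR to GRCm38 (mm10), kept uniquely mapped reads, and made one track per library with HOMER. The deposited values are signal (coverage scaled to a common total) averaged over segments. Fragment length and the handling of duplicate reads are not given in the sources used here. Depth could not be recovered from averaged segments, so no counting interval is given. Median segment length was 269 bp in input replicate 1 and 481 to 519 bp in the other libraries.

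From these tracks, means over 200-bp windows in steps of 10 bp were computed with Python 3 (numpy, pandas), and sites were called as stated. The calling and the motif scan were tested on simulated data. Motifs were read in RefSeq GRCm38.p6 sequence and gene positions from GENCODE vM21. Flanks were windows at 1 kb on both sides, and genome windows were weighted to the members' GC in 20 bins. No test was run, since all libraries entered the selection and regions are not replicates. The members and gene lists were chosen with earlier results of these data known. Named sites were the 5 with the highest fold in the weaker of the other replicates, the 2 of the highest fold per calling replicate, the best with an ERE of at most 1 mismatch per calling replicate, and those within 50 kb of a listed gene. Some of the sites that this rule names are not reported here.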

Additional observations from a re-analysis of the deposited data

How the results depend on the processing

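A fold of 6 left 1123 one-replicate sites, and the other settings stayed within 1.5 times of 2176. The median fold in the other replicates was 2.21 and 3.23 at heights of 1.5 and 3, 2.12 and 4.20 at folds of 3 and 6, and 2.93 when the highest window within 200 bp was read; leaving out an input gave 2.72 and 2.75, and leaving out ChIP replicate 1, 2 or 3 gave 2.99, 2.88 and 2.97. The ERE share was 43.8% at a height of 1.5, 49.8% and 64.7% at folds of 3 and 6, 56.2% without the local criterion, 59.3% against the higher input, 22.5% and 3.68% with at most 1 and no mismatch, and 45.0% and 61.7% in windows of 100 and 400 bp. It was 53.0% and 57.5% without input replicate 1 or 2, and 57.6%, 60.6% and 62.0% without ChIP replicate 1, 2 or 3. The promoter share ranged over 14 settings from 8.82% (protein-coding transcripts only) to 17.6% (a fold of 3). It was 12.7%, 14.8% and 9.02% without ChIP replicate 1, 2 or 3. Every shift was smaller than the SD of 7.80 between calling replicates. That SD is wide, with 21.1% for replicate 3 beside 8.95% and 6.51%, so these shifts do not show a stable share. The causes of these shifts were not tested. At least 2-fold in both other replicates, a share of 60.8%, was 37.7% at a calling fold of 3 and 89.8% at 6. Without a ChIP library the share refers to 1 other replicate and is not comparable. No paired analysis was possible because no comparison between groups was tested. Knockout ChIP not being used here, 1 pool per replicate and averaged segments, which blur summits, limit what single sites can show.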
